A study of Homo sapiens with 18 samples.

Results

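PDK2 encodes one of the pyruvate dehydrogenase kinases, and the introns of this gene were described in SHEP.tet21n cells with and without MYCN and SNRPD3. An intron belonged to the set when it lay on chromosome 17 of hg38 between 50094737 and 50112152, the annotated span of PDK2 on the plus strand, and had a splice site of PDK2. There were 10 such introns among the 233650 introns given a value. A further 3 introns had a PDK2 splice site but reached past the ends of the gene, and 8 introns without any PDK2 site shared a cluster with them, so all 21 were followed. The gene was chosen by the measured PSI of the intron between its first 2 exons (chr17:50095554-50097422), which differed between MYCN+/SNRPD3- and wildtype cells and with MYCN alone. Levels in those comparisons are therefore a description, without a test.

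SHEP.tet21n is a human neuroblastoma line carrying a MYCN cDNA that doxycycline (Dox) switches off. Cells given 2 µg/mL Dox (MYCN-) or the vehicle DMSO (MYCN+) were transfected with a non-targeting control siRNA (SNRPD3+) or with 1 of 2 siRNAs against SNRPD3 (SNRPD3- #1 and SNRPD3- #2), which encodes a core protein of the spliceosomal Sm ring. MYCN-/SNRPD3+ is the wildtype. Each of the 6 groups had 3 replicate libraries, 18 in all, every one from the same engineered line. MYCN status and the presence of Dox cannot be told apart in this design. The study describes its replicates as independent biological ones, and the labels add no detail on cultures. The labels were not checked against MYCN and SNRPD3 themselves, whose introns are not used here. Of the marker genes of the neuroblastoma cell states, 7 of 8 mesenchymal ones had introns given a value, and VIM had none. Among adrenergic markers HAND2, GATA3 and ISL1 had introns given a value, and TH, DBH and CHGA had none. PSI is no expression level, so this shows only which markers had introns given a value, and a marker without one may still be expressed.

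The pyruvate dehydrogenase complex turns pyruvate into acetyl-CoA in the mitochondrion and so joins glycolysis to the citric acid cycle. Pyruvate dehydrogenase kinases phosphorylate and switch off its E1 subunit, pyruvate dehydrogenase phosphatases reverse this, and tumour cells that favour lactate production often rely on the kinases. The first exon of a gene carries the start of transcription, so different first introns joined to the same second exon can mark transcripts that began at different places. An intron alone does not show where its RNA began. The first part of a mitochondrial protein usually holds the signal that takes it into the organelle.

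The canonical PDK2 transcript has 11 exons and 10 introns, of which introns 1, 2, 3, 6, 7 and 10 had values and introns 4, 5, 8 and 9 did not. Its exon 1 (chr17:50095351-50095553) holds the start codon at 50095436 of a reading frame of 407 codons, and exon 2 covers chr17:50097423-50097564. In the annotation, 5 different first exon donors are spliced directly to exon 2. Only that of the canonical exon 1 was given a value, and the other 4 had none. In 6 of the 16 annotated transcripts the start codon lies in exon 2 at 50097497, which gives a frame of 343 codons in the longest of them and leaves out 64 codons from the amino end.

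The cluster that held intron 1 had 11 introns, built from 7 donors and 4 acceptors. Apart from intron 1, 2 introns joined a site upstream of PDK2 to exon 2. One ran from the last exon of ITGA3, an integrin gene on the same strand (chr17:50090227-50097422). Its donor lies 1894 bases beyond the coding end of the canonical ITGA3 transcript. The other ran from within the span of ENSG00000276851, a long noncoding RNA annotated at chr17:50094065-50094647 (chr17:50094579-50097422). Sites were placed in this gene by position only, without comparing strands. Neither is annotated in GENCODE release 44. The splice sites that competed for exon 2 are shown so that they can be compared, each donor with the last 3 bases of the exon before it and the acceptor with the first 3 bases of exon 2. Capitals mark the intron ends, GT and AG, on the plus strand of hg38.
PDK2 exon 1 donor, chr17:50095551-50095559: tcgGTacgg
ITGA3 last exon donor, chr17:50090224-50090232: gagGTggag
ENSG00000276851 donor, chr17:50094576-50094584: cagGTggtc
PDK2 exon 2 acceptor, chr17:50097403-50097425: acccctctttctcctgccAGgat

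The other 8 introns of the cluster had no PDK2 splice site. They lay between the last exon of ITGA3 and the stretch just before PDK2, a distance of 4255 bases from the end of one gene to the start of the other. None of them is annotated, and all 8 had GT and AG ends on the plus strand. The largest of them (chr17:50093580-50094341) ended inside ENSG00000276851, with the donor and acceptor given here because this intron carried most of the upstream signal.
Largest upstream intron donor, chr17:50093577-50093585: cagGTatgg
Largest upstream intron acceptor, chr17:50094322-50094344: tctgtgttccctgttcccAGcat

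Read as neighbours, these introns outlined short exons between the genes. Exons of 171 or 259 bases lay between the acceptor before 50093321 and the donors at 50093491 and 50093579, and exons of 213 or 237 bases between the acceptor before 50094342 and the donors at 50094554 and 50094578. The last upstream acceptor opened an exon at 50094718, 19 bases before the annotated start of PDK2. The next donor with a value after this acceptor was that of intron 1 itself, so an exon opened there could end with canonical exon 1, and how such an RNA continued was not shown. PSI is counted 1 intron at a time and does not show which introns belonged to 1 molecule. The RefSeq promoter of the most upstream PDK2 start (GRCh38.p14, chr17:50094487-50094786, plus strand, 250 bases before to 50 after the start) holds 3 of these splice sites, in capitals.
Upstream PDK2 start: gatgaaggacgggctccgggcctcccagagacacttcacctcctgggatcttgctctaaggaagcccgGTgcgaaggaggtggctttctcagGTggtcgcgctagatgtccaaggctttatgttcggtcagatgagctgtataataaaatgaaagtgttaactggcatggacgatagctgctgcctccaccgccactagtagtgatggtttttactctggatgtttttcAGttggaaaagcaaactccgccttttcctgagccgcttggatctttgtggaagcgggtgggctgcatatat

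The promoter of the canonical exon 1 start is shown because intron 1 began in that exon (RefSeq, GRCh38.p14, chr17:50095101-50095400, plus strand). Capitals mark CACGTG, the E-box that MYC family proteins with MAX are known to bind, at chr17:50095222-50095227, 129 bases before the start at 50095351.
Canonical PDK2 start: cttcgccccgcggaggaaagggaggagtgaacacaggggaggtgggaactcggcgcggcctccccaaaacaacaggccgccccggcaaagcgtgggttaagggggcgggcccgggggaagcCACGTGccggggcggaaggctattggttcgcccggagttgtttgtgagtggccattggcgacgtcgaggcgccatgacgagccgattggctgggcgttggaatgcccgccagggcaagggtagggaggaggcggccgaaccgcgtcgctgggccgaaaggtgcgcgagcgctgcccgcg
The motif reads the same on both strands. It was in 7.26% of 35116 RefSeq promoters of the same length, and in neither of the other PDK2 promoters. The wider motif CANNTG, which includes CACGTG, was in 68.7% of all promoters. At PDK2 it was found 3 times in the upstream promoter, once in the canonical one at the CACGTG, and not in the promoter of the start at 50095695. A match is a stretch of letters, and binding was not measured here.

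**Figure D1:**
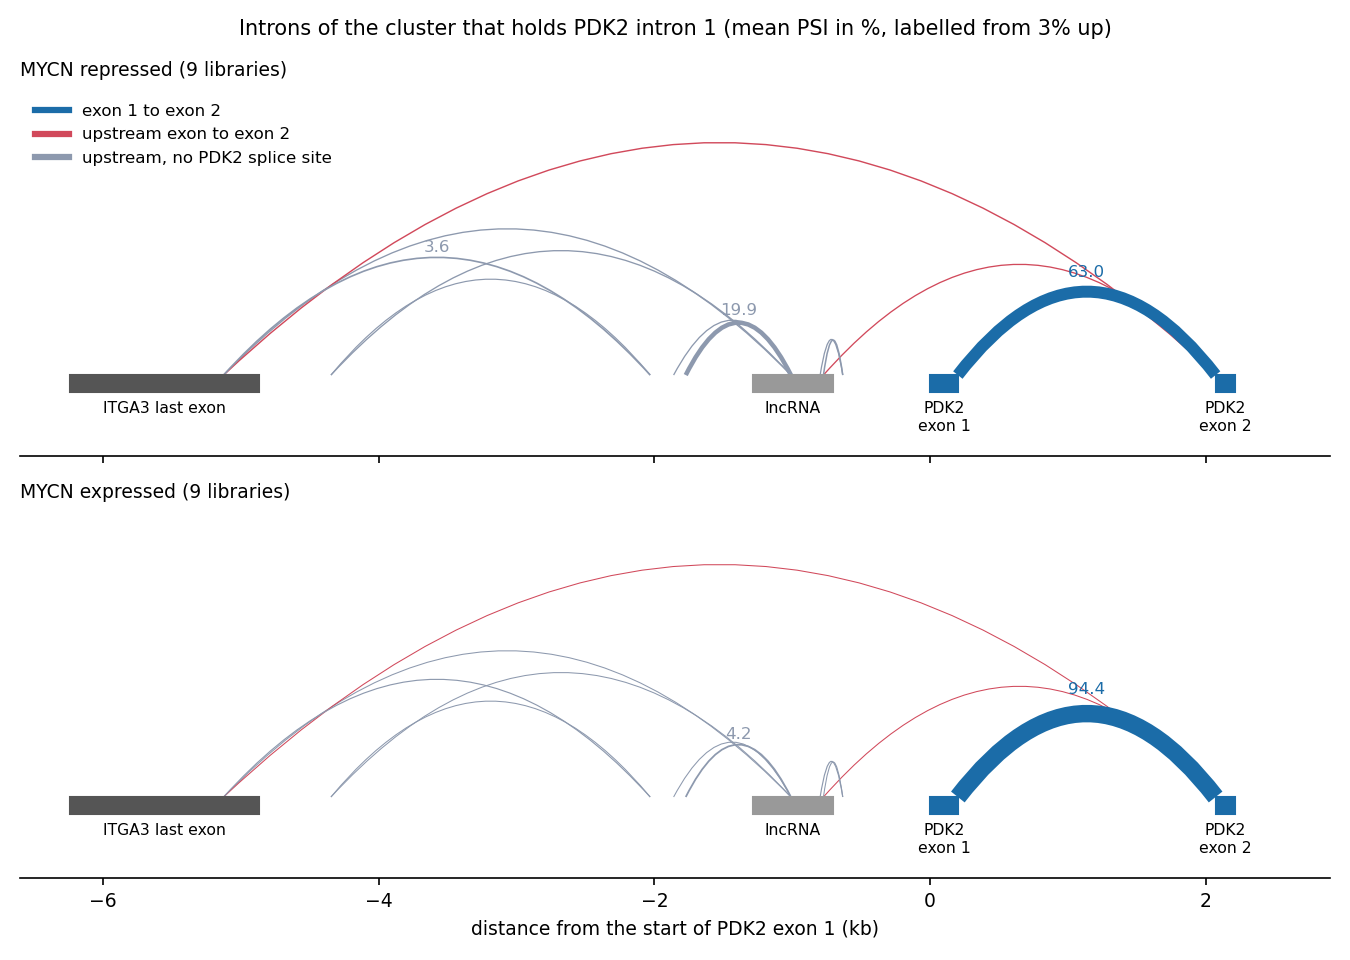
Arcs span the 11 introns of the cluster of PDK2 intron 1, drawn against the distance in kb from the start of PDK2 exon 1, with the line width and the number giving the mean PSI in percent over the 9 MYCN- libraries (top) and the 9 MYCN+ libraries (bottom). Arc height carries no value. With MYCN repressed the largest upstream intron had a mean of 19.9% and intron 1 63.0%, and with MYCN expressed they had 4.19% and 94.4%.

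PSI is the fraction of the spanning reads of a cluster that belongs to 1 intron, given here in percent. It sums to 100% over the cluster, so it compares introns with each other and does not give the amount of PDK2 RNA. Intron 1 took a much larger share of the cluster in all 9 MYCN+ libraries than in any MYCN- library. In wildtype cells its PSI was 62.4%, 55.6% and 58.3% in replicates 1, 2 and 3, a mean of 58.8% ± 3.44 (SD, n = 3). In MYCN+/SNRPD3+ cells it was 91.2%, 95.2% and 98.1%, a mean of 94.8% ± 3.48 (SD, n = 3). The difference of 36.1 percentage points, or 3.63 in log2 odds, was one of those that chose the gene. Intron 1 passed the limma threshold of 0.05 there as 1 of 5 PDK2 introns, in a comparison that called 0.0543% of all introns, and nothing is read from it because the choice used it. The same holds for MYCN+/SNRPD3- against wildtype, where 1 of 5 was called with either siRNA and 0.278% (siRNA #1) and 0.11% (siRNA #2) of all introns were called. Log2 odds here are log2((PSI + 0.01)/(1 - PSI + 0.01)), with PSI as a fraction.

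In SNRPD3-depleted cells the split by MYCN was again without overlap. With siRNA #1, PSI of intron 1 was 70.8%, 59.2% and 74.3% in MYCN- cells, and 97.9%, 95.6% and 93.9% in MYCN+ cells. With siRNA #2 it was 62.1%, 57.5% and 66.5% in MYCN- cells, and 95.6%, 89.9% and 91.7% in MYCN+ cells. Over all 18 libraries the lowest MYCN+ value stood 15.6 percentage points above the highest MYCN- value. That highest MYCN- value came from replicate 3 of MYCN-/SNRPD3- #1, which also had the fewest competing introns above 1% of the MYCN- libraries, 3 of 10.

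**Figure D2:**
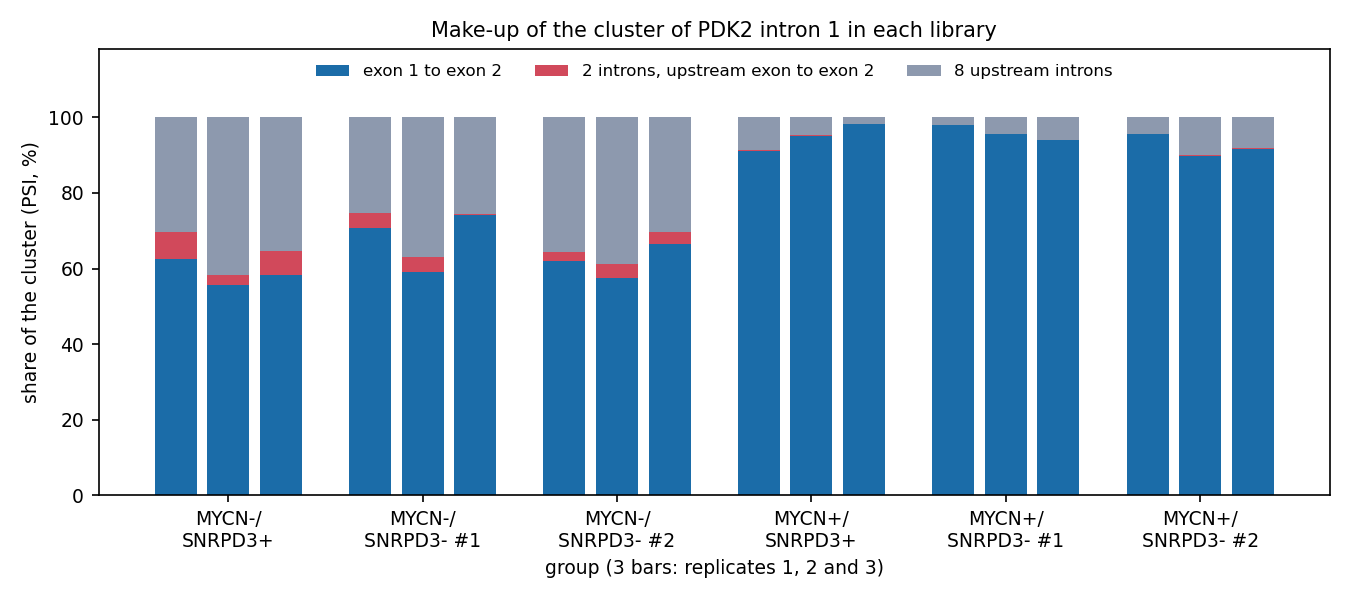
Each bar is 1 library, split into the PSI in percent of intron 1 (blue), of the 2 introns from upstream exons to exon 2 (red) and of the 8 upstream introns (grey). The grey part fills 25.4% to 41.7% of the MYCN- bars and 1.84% to 10.1% of the MYCN+ bars, and the red part is visible in 8 of 9 MYCN- bars.

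The MYCN effect among SNRPD3-depleted cells was tested, since this contrast did not choose the gene. The MYCN+/SNRPD3- libraries did enter the contrast with wildtype that chose it, so only the 6 MYCN-/SNRPD3- libraries were new to the comparison. The p-values for intron 1 and for the upstream introns of its cluster thus rest in part on values used in the choice and are not independent evidence of a MYCN effect. PSI of intron 1 was 94.1% ± 2.92 (SD, n = 6) in MYCN+ and 65.1% ± 6.63 (SD, n = 6) in MYCN- cells, both siRNAs together. The difference was 29.1 percentage points, with p = 0.00216 in a two-sided exact permutation test. This is the smallest p that 924 assignments can give, and 0.00325 when adjusted over 6 measures by Benjamini-Hochberg. The 6 measures include further shares of this same cluster, among them one given below without a p. The adjustment is therefore mild, and the adjusted values lend no added support. In the limma fit over 152722 introns, intron 1 was higher by 3.21 log2 odds in MYCN+ cells with siRNA #1 (95% interval 2.22 to 4.21, adjusted p = 0.0283). With siRNA #2 it was higher by 2.81 (1.82 to 3.80), with an adjusted p of 0.0635 in limma that missed the threshold of 0.05. Intron 1 was thus the 1 of 5 PDK2 introns tested that was called with siRNA #1, where 0.0491% of all introns tested were called. With siRNA #2, 0 of 5 were called by limma, 1 of 5 had an unadjusted p under 0.05, and 0.0393% of all introns were called. With siRNA #1 the call was lost when any of 5 libraries was left out, namely each MYCN-/SNRPD3- #1 library and replicates 1 and 2 of MYCN+/SNRPD3- #1, with adjusted p up to 0.0993 in limma.

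The upstream introns held most of what intron 1 did not. Their summed PSI was 35.8% ± 5.70 (SD, n = 3) in wildtype cells, 29.4% ± 6.65 with siRNA #1 and 35.0% ± 4.26 with siRNA #2 under MYCN repression. In MYCN+ cells it was 5.13% ± 3.47 with control siRNA, 4.16% ± 1.99 with siRNA #1 and 7.56% ± 2.92 with siRNA #2 (SD, n = 3 each). No MYCN+ library reached the lowest MYCN- library. Among SNRPD3-depleted cells the sum was 5.86% ± 2.91 (SD, n = 6) in MYCN+ and 32.2% ± 5.86 (SD, n = 6) in MYCN- cells, a difference of -26.3 percentage points (two-sided exact permutation test, p = 0.00216, 0.00325 adjusted). This value is not independent of that of intron 1, because the shares of a cluster sum to 100%.

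The largest upstream intron was above 1% in every library. Its PSI was 19.8%, 21.2% and 19.7% in wildtype cells, and 5.97%, 4.70% and 1.76% in MYCN+/SNRPD3+ cells. In SNRPD3-depleted cells it ranged from 10.1% to 27.5% without MYCN and from 1.98% to 6.46% with MYCN, with no overlap (difference of means -15.5 percentage points, two-sided exact permutation test, p = 0.00216, n = 6 and 6, 0.00325 adjusted). The p-value adds no support to that of intron 1, because both are shares of the cluster that chose the gene. The largest upstream intron was also picked by its mean PSI in these same libraries. In limma its MYCN effect was -2.12 log2 odds with siRNA #1 (adjusted p = 0.0904) and -2.37 with siRNA #2 (adjusted p = 0.0570), neither past the threshold. The intron from the ITGA3 exon to the acceptor before 50093321 (chr17:50090227-50093320) had the next highest mean over the MYCN- libraries, at 3.63% ± 0.944 over the 9 MYCN- libraries and 0.604% ± 0.879 over the 9 MYCN+ libraries (SD). It was at least 2.54% in every MYCN- library and at most 2.01% in any MYCN+ library.

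The other competing introns were seen on and off from library to library. Over 10 competing introns and 18 libraries, 74 of 180 values were above 1%, namely 60 of 90 in MYCN- and 14 of 90 in MYCN+ libraries. No value lay between 0.0628% and 1.62%. Values under that gap were never exactly 0, and reads behind them are not given, so whether they stand for any read could not be checked. All 10 competing introns passed 1% in at least 1 MYCN- library, and 3 did so in at least 1 MYCN+ library. The third of these, at chr17:50094555-50094717, passed 1% in 2 MYCN+ libraries, at 2.66% and 3.94%. The lowest PSI of the cluster, which was taken by whichever intron was least used, also moved with MYCN. It was 0.0213% to 0.0628% in MYCN- and 0.00664% to 0.0188% in MYCN+ libraries, and its part in the results was not tested.

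The introns that changed which exon was joined to PDK2 exon 2 were the 2 from upstream exons. The intron from ITGA3 had a PSI of 5.14%, 2.66% and 2.73% in wildtype cells and at most 0.0279% in any MYCN+ library. The intron from ENSG00000276851 had 2.12%, 0.0628% and 3.64% in wildtype cells and at most 0.0248% in any MYCN+ library. In MYCN- cells 11 of 18 values of these introns were above 1%, and in MYCN+ cells 0 of 18 were. Under SNRPD3 siRNA with MYCN repressed, their sum was 3.81%, 3.77% and 0.0591% with siRNA #1, and 2.25%, 3.65% and 3.14% with siRNA #2. Replicate 3 with siRNA #1 was thus the only MYCN- library of 9 with neither intron above 1%.

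Counted only among the introns that end at exon 2, intron 1 took nearly all of the splicing in every group, and the MYCN difference was smaller. Its share was 89.6%, 95.3% and 90.1% in wildtype cells (91.7% ± 3.17, SD, n = 3). With MYCN repressed it was 96.3% ± 3.19 with siRNA #1 and 95.3% ± 1.24 with siRNA #2 (SD, n = 3 each). In the 9 MYCN+ libraries it lay between 99.94% and 99.98%. The highest MYCN- library, replicate 3 of MYCN-/SNRPD3- #1, had 99.92%. In that library and in all MYCN+ libraries both joined introns lay under the gap in PSI, where reads could not be checked, so the order of these values is not read as a difference. Among SNRPD3-depleted cells the mean share was 4.16 percentage points higher in MYCN+ than in MYCN- cells, given without a p for this reason. This share was added after seeing the data.

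The difference of intron 1 can be laid out by the parts of the cluster whose summed share was lower in MYCN+ cells. Shares do not show which introns changed in amount. With control siRNA, 30.6 of the 36.1 percentage points, or 85.0%, lay on the 8 upstream introns and 5.43 points, or 15.1%, on the 2 introns joined to exon 2. With siRNA #1 the upstream introns held 90.9% and with siRNA #2 90.2%. Among introns ending at exon 2, the MYCN difference in the share of intron 1 was 8.29 points with control siRNA, 3.70 with siRNA #1 and 4.62 with siRNA #2. Most of the PSI difference of intron 1 was measured against introns without a PDK2 splice site. Whether the RNAs that held them continued into PDK2 was not shown.

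**Figure D3:**
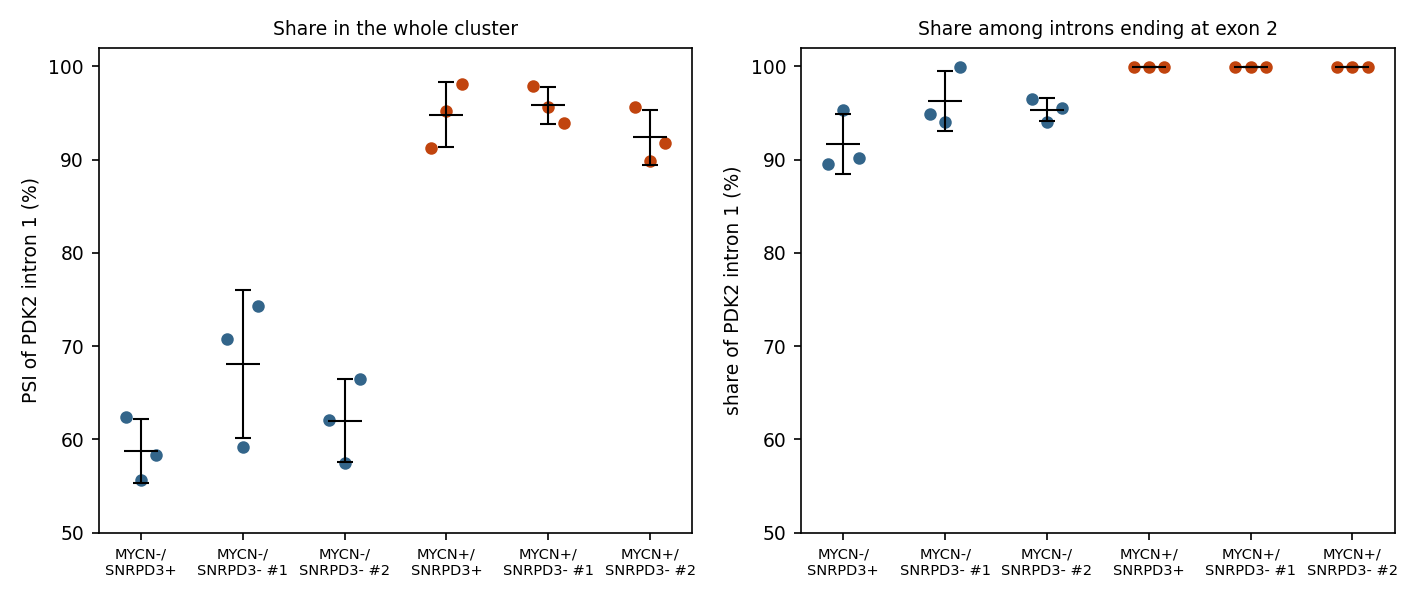
Points are libraries, blue for MYCN- and orange for MYCN+, with the group mean and SD (n = 3), for the share in percent of PDK2 intron 1 in its whole cluster (left) and among introns that end at exon 2 (right). The vertical axes do not begin at 0. The gap between MYCN- and MYCN+ is wide on the left, at 36.1 points with control siRNA, and 8.29 points on the right.

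As for the isoforms implied, intron 1 marks transcripts with canonical exon 1, and the 3 annotated ones with this intron all begin before the start codon at 50095436. An RNA that reaches exon 2 from the ITGA3 exon or from the site within the ENSG00000276851 span skips canonical exon 1 and with it the start codon at 50095436. Such an RNA still holds the exon 2 start codon of the 343 codon frame. The ITGA3 donor lies beyond the coding end of ITGA3, so an RNA from there could also hold that frame before it. Which start codon such RNAs would use was not shown. Introns joined in this way made up 8.32% ± 3.17 (SD, n = 3) of splicing into exon 2 in wildtype cells, the remainder of the share of intron 1. With MYCN repressed they made up 3.72% ± 3.19 with siRNA #1 and 4.66% ± 1.24 with siRNA #2 (SD, n = 3 each). The lowest of these libraries had 0.079%. In MYCN+ libraries they made up at most 0.059%, from PSI values under the gap, where reads could not be checked. No protein was measured.

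No difference of intron 1 with SNRPD3 knockdown passed the test. With MYCN repressed, its PSI was 68.1% ± 7.90 with siRNA #1 and 62.0% ± 4.47 with siRNA #2 (SD, n = 3 each), beside 58.8% ± 3.44 in wildtype cells. The differences were 0.59 log2 odds (95% interval -0.41 to 1.58) and 0.19 (-0.80 to 1.19), both with an adjusted p of 1 in limma. With MYCN expressed, PSI was 95.8% ± 2.00 with siRNA #1 and 92.4% ± 2.93 with siRNA #2 (SD, n = 3 each), beside 94.8% ± 3.48. The differences were 0.17 (-0.82 to 1.16) and -0.63 (-1.62 to 0.37), with adjusted p of 1 and 0.960 in limma. Each of the 4 groups overlapped its control in PSI. In these 4 comparisons limma called 0 of 5 PDK2 introns within the gene, and 0 of these had an unadjusted p under 0.05. Of all introns tested, 0.0105%, 0.0151%, 0.0144% and 0.0164% were called. The intron from ITGA3 to exon 2, which reaches past the gene, is not among the 5 and is given below. The intervals still allow a change of more than 1 log2 odds in at least 1 direction. Wildtype, MYCN+/SNRPD3+ and MYCN+/SNRPD3- libraries, whose intron 1 values chose the gene, enter these comparisons and the interactions, so these tests are not independent of the choice either.

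A difference of the MYCN effect between SNRPD3 states did not pass the test for intron 1. The interaction subtracts the knockdown difference in MYCN- cells from that in MYCN+ cells. It was -0.41 log2 odds for intron 1 with siRNA #1 (95% interval -1.82 to 0.99) and -0.82 with siRNA #2 (-2.22 to 0.58), both with an adjusted p of 1 in limma. No PDK2 intron within the gene was called for either siRNA, 0 of these 5 had an unadjusted p under 0.05, and 0.017% and 0.0138% of all introns tested were called. For intron 1, the intervals in the tests of SNRPD3 did not reach the size of the MYCN effects, 3.21 and 2.81 log2 odds. Smaller changes remain possible within them.

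**Figure D4:**
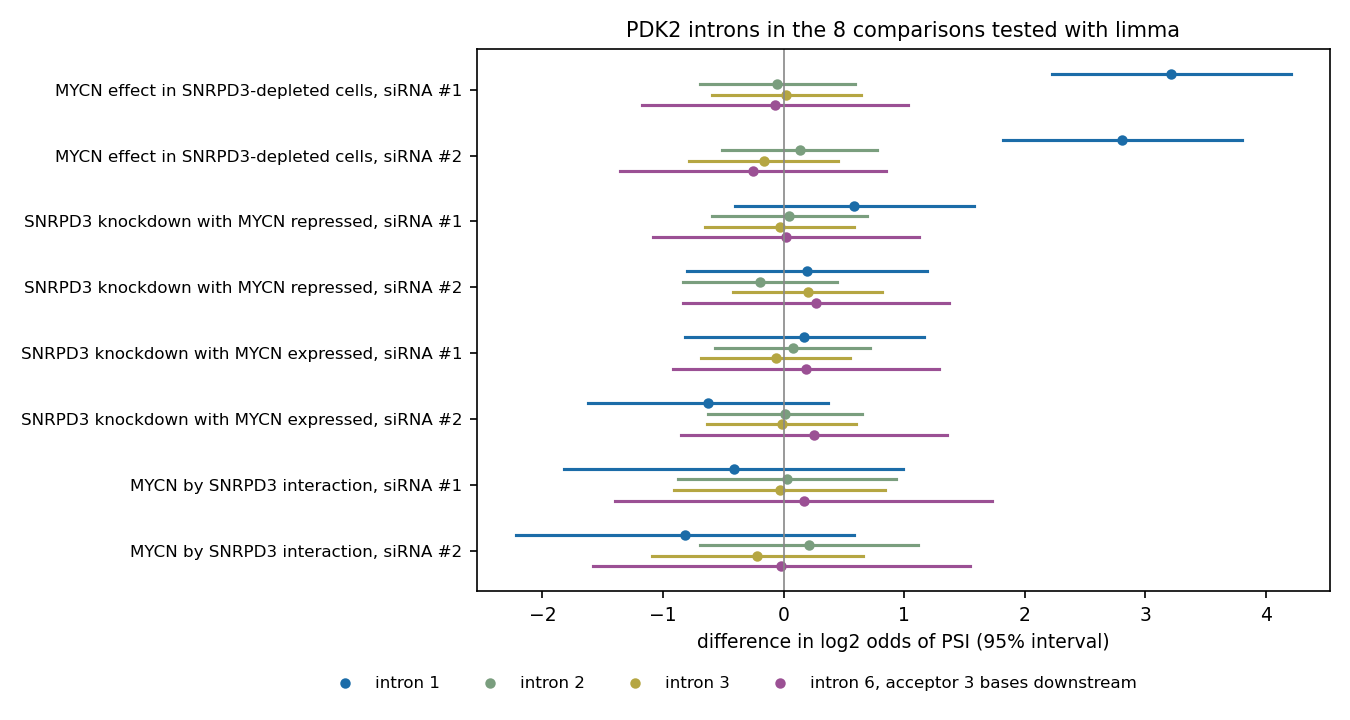
Points give the difference in log2 odds of PSI and lines its 95% interval from the limma fit, for 4 PDK2 introns (colours) in 8 comparisons (vertical axis). Intron 1 in the 2 MYCN comparisons, at 3.21 and 2.81, stands clear of 0, and the other intervals shown include 0.

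Downstream of exon 2 the PDK2 introns varied little between groups. Introns 2 and 3 flank exon 3 (chr17:50105371-50105442), 72 bases or 24 codons long, and an unannotated intron from exon 2 to exon 4 skips it. Inclusion of exon 3, from the mean of the flanking introns and the skipping intron, lay between 97.2% and 99.98% in all libraries, and the skipping intron reached at most 1.43%. In SNRPD3-depleted cells inclusion was 98.6% ± 1.49 (SD, n = 6) in MYCN+ and 99.8% ± 0.427 (SD, n = 6) in MYCN- cells. That difference of -1.19 percentage points did not pass the test (two-sided exact permutation test, p = 0.102, 0.122 adjusted). An unannotated acceptor within intron 2, 2358 bases before that of exon 3, reached at most 0.758%.

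The 2 introns that flank exon 3 lie in the same RNA when it is included, and their shares differed between libraries. Intron 2 made up 42.0% to 63.1% of the sum of introns 2 and 3, and both extremes came from MYCN-/SNRPD3- #1, in replicates 2 and 3. No group difference was tested for this ratio.

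Intron 6 had a second acceptor 3 bases downstream, which would leave out 3 bases and so keep the reading frame. Both acceptors are shown since they lie next to each other, each with the 3 bases that follow it.
Intron 6 acceptor, chr17:50108136-50108158: ggtcttgacttgccctgtAGcag
Intron 6 acceptor 3 bases downstream, chr17:50108139-50108161: cttgacttgccctgtagcAGcca
The downstream acceptor is not annotated as the end of an intron. Its PSI ranged from 0.0121% to 4.62% over all libraries, both extremes in cells with control siRNA. In SNRPD3-depleted cells it was 1.58% ± 0.630 (SD, n = 6) in MYCN+ and 1.84% ± 0.484 (SD, n = 6) in MYCN- cells (two-sided exact permutation test, p = 0.422, also 0.422 adjusted). An acceptor 60 bases downstream in intron 7 reached at most 1.37%. Intron 10 had a competing acceptor 9577 bases downstream, past the end of PDK2 and inside an intron of SAMD14, a gene on the other strand. It had 5.18% in wildtype replicate 2 and 3.05% in replicate 2 of MYCN-/SNRPD3- #2, and at most 0.0354% in the other 16 libraries.

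**Figure D5:**
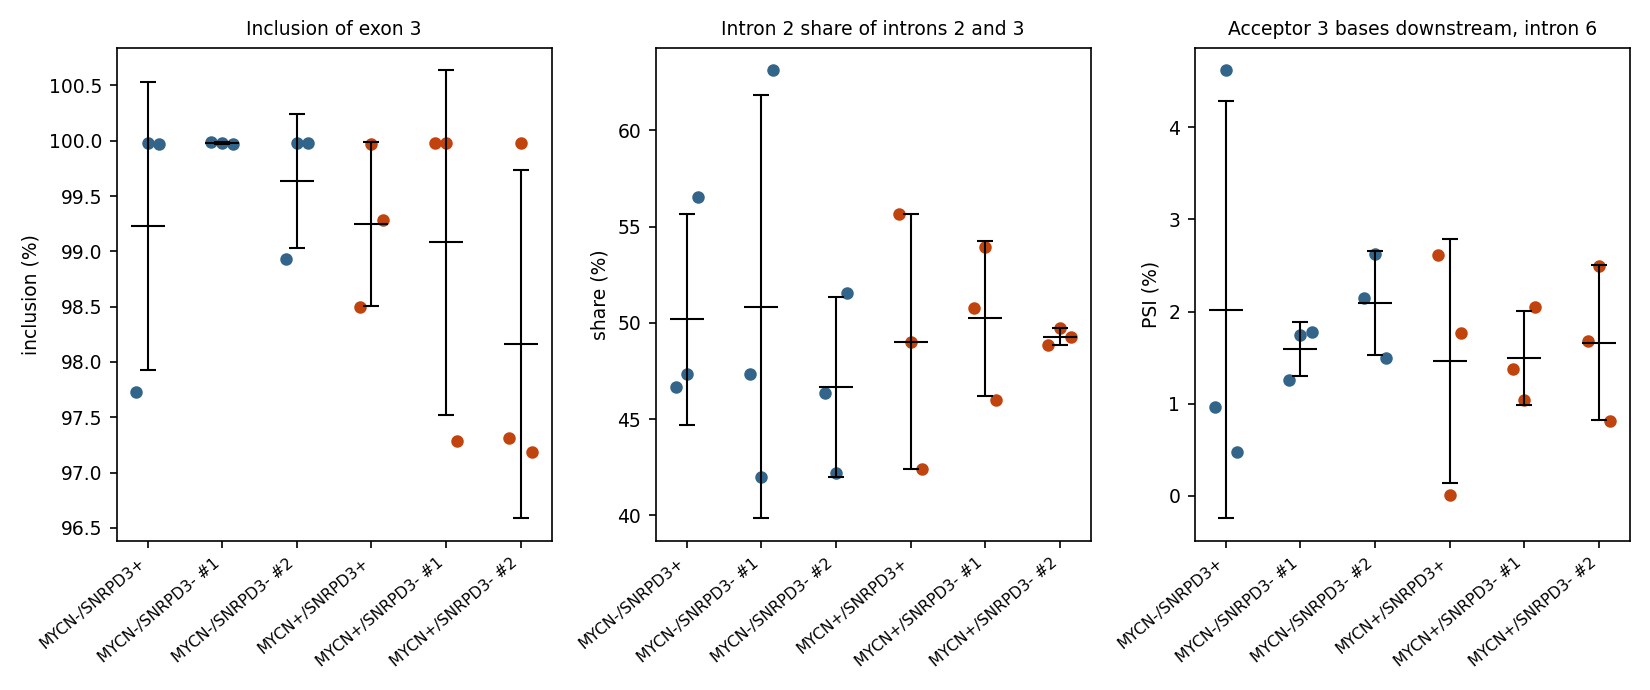
Points are libraries, blue for MYCN- and orange for MYCN+, with the group mean and SD (n = 3), for inclusion of PDK2 exon 3 in percent (left), the share of intron 2 in the sum of introns 2 and 3 in percent (middle) and the PSI in percent of the acceptor 3 bases downstream in intron 6 (right). The vertical axes do not begin at 0, and SD bars may pass the limits of a share. MYCN- and MYCN+ libraries overlap in each panel, with exon 3 inclusion between 97.2% and 99.98%.

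Among the 13 introns with a PDK2 site, 5 had a mean PSI between 1% and 99% within the gene and were tested there, which are introns 1, 2 and 3 and both forms of intron 6. Outside intron 1, their differences lay between -0.27 and 0.27 log2 odds in every comparison, and the lowest unadjusted p was 0.496 in limma. Of the 3 introns reaching past the gene, the one from ITGA3 to exon 2 was also tested, and its MYCN effect in SNRPD3-depleted cells was -0.55 log2 odds with siRNA #1 and -1.44 with siRNA #2, with adjusted p of 0.921 and 0.506 in limma. Its knockdown difference with MYCN repressed was -1.61 with siRNA #1 (limma, unadjusted p = 0.00681, adjusted p = 0.909) and -0.72 with siRNA #2 (unadjusted p = 0.179). With siRNA #1 its PSI there was 1.91%, 0.0599% and 0.0312%. Its interaction was 1.61 with siRNA #1 (limma, unadjusted p = 0.0411) and 0.72 with siRNA #2 (unadjusted p = 0.330). None of these was called. The remaining introns with a PDK2 site had a mean PSI outside these limits and were not tested. Upstream introns of the cluster within the limits were tested too. For chr17:50090227-50093320 the knockdown difference with MYCN expressed was 0.457 with siRNA #1 and 0.997 with siRNA #2 (limma, unadjusted p = 0.299 and 0.0343). For chr17:50094579-50094717 with MYCN repressed it was -0.895 and -1.25 (limma, unadjusted p = 0.123 and 0.0383). None of these differences was called.

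Other genes of the pathway were counted in the same fit. Of 17 genes, the other kinases PDK1 and PDK3, the phosphatases PDP1 and PDP2 with their regulatory subunit PDPR, the complex subunits PDHA1, PDHB, DLAT, DLD and PDHX, the pyruvate carriers MPC1 and MPC2, pyruvate carboxylase (PC) and BCKDK, the kinase of the branched-chain ketoacid dehydrogenase, had 126 tested introns in 14 genes. PDK4, LDHA and LDHB had no intron with a value. No gene was called by limma in any of 11 comparisons. For the MYCN effect with siRNA #1 and siRNA #2, 2 and 10 of the 126 introns (1.6% and 7.9%) had an unadjusted p under 0.05, beside 7.55% and 7.27% of all introns tested. Their median difference was 0.01 and 0.00 log2 odds, and that of all introns 0.00 in both. PDK1 had 18 tested introns and PDK3 had 6, with lowest unadjusted p of 0.0847 and 0.0718 in limma for the MYCN effect with siRNA #1.

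Introns of other genes that followed intron 1 most closely over the 18 libraries were looked for among 126351 introns with 18 different values. Those of 5 genes led, by Pearson's r on the log2 odds scale. An intron of FAT1, an atypical cadherin, had r = 0.952 (chr4:186589221-186595688), with PSI from 68.5% to 82.4% in MYCN+ and 48.6% to 58.8% in MYCN- libraries. An intron of COL5A1, a fibrillar collagen chain, had r = 0.945 (chr9:134825905-134829975), with 86.4% to 89.2% and 71.4% to 78.6%. An intron of HNRNPA2B1, a nuclear RNA-binding protein, had r = 0.944 (chr7:26192339-26192494), with 90.4% to 91.5% and 86.8% to 88.4%. In the opposite sense stood introns of MAST2, a microtubule-associated kinase, with r = -0.943 (chr1:45997800-46000958), and CA12, a carbonic anhydrase, with r = -0.940 (chr15:63327234-63328097). All 5 are annotated introns. The 18 points share 2 MYCN levels, so r mostly restates the split by MYCN status, and these values describe likeness over these libraries.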

How the data were processed

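RNA-seq libraries of SHEP.tet21n cells (TruSeq stranded, polyadenylated RNA, paired-end) came from 6 groups of 3. According to the submitters' processing notes and methods, reads were mapped to hg38 with STAR 2.5.0a (SAMtools 1.3.1 is also named), and introns were clustered with leafcutter under GENCODE release 28. The authors deposited PSI as a fraction per intron and library, the share of an intron in its cluster, with 0 columns left unmatched to a library. The authors also deposited comparisons holding delta PSI and FDR, which were not used. The depth is unknown, since no reads per intron are given, and a single PSI carries no interval or floor. Clusters carry no strand, and GT and AG ends were read on the plus strand.

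Introns were placed on GENCODE release 44. Introns whose mean PSI lay from 0.01 to 0.99 (152722 of 233650, in 51819 clusters) were put on the log2 odds scale with an offset of 0.01 and fitted with limma 3.58.1 in R 4.3.3 (lmFit and eBayes), 6 group means in 1 fit, with 12 residual and 1.17 prior degrees of freedom. Benjamini-Hochberg adjustment was made per comparison and 0.05 was the threshold. The fit was tested on simulated data. Measures with a single value in each library had two-sided exact permutation tests (Python 3.11.15, numpy 2.4.6, scipy 1.17.1, pandas 2.3.3), and plots drawn with matplotlib 3.10.9. Of the 6 measures tested, 5 were added after seeing the data.

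The genes named are PDK2, the pyruvate dehydrogenase genes with a called intron plus PDK1, PDK3 and PDK4, and the 5 genes, 1 intron each, most correlated with intron 1 in either sense. The remaining pathway genes and the markers are named only as members of their lists, and the adrenergic list is not reported here in full. Members and lists were chosen with earlier results of these data known. Alternatives were the PSI scale, offsets of 0.001 and 0.05, other PSI filters, fewer groups in the fit, eBayes options, a replicate block and leaving out each library.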

Additional observations from a re-analysis of the deposited data

Results flagged for a closer look

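Each of the 6 measures was looked at in the MYCN+/SNRPD3- and in the MYCN-/SNRPD3- libraries. In these groups of 6 libraries, the lowest library stood apart from the others for 2 measures. For normally distributed values chance alone gives this in about 1 in 20 groups looked at, and shares close to 100% need not follow that rate. Among MYCN+/SNRPD3- libraries, replicate 2 with siRNA #2 had the lowest share of intron 1 among introns ending at exon 2, at 99.94%, within 0.035 points of the highest, where both joined introns had a PSI under 0.0628%, where reads could not be checked. Among MYCN-/SNRPD3- libraries, replicate 1 with siRNA #2 had the lowest inclusion of exon 3, at 98.9%.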

How the results depend on the processing

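Of 236 alternative values, 221 were counted as unchanged. For tests this meant the same direction and side of the threshold. For the untested control siRNA difference and the pathway gene count it meant a value close to the main one. Many belonged to SNRPD3 tests far from the threshold, which could hardly change side. The 6 values that lost a call and the 5 that gained one were all MYCN effects on intron 1. The MYCN effect on intron 1 in SNRPD3-depleted cells kept its direction under every alternative run. With siRNA #1 it was 3.21 log2 odds when only the groups compared were fitted, with an adjusted p of 0.110 in limma, and 2.87 to 3.49 when 1 library was left out, with adjusted p from 0.0113 to 0.0993. With siRNA #2 it passed the threshold on the PSI scale, at 0.304 as a fraction (adjusted p = 0.00739 in limma), and with an offset of 0.05, at 2.34 (adjusted p = 0.0162). Leaving out 1 library gave 2.48 to 3.05 (adjusted p 0.0318 to 0.181) and passed in 3 of 18 cases. The cause was not tested.

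For knockdown, leaving out 1 library gave 0.38 to 0.87 and 0.06 to 0.33 with MYCN repressed (siRNA #1 and #2), and -0.28 to 0.66 and -1.08 to -0.13 with MYCN expressed. The interactions ran from -0.86 to 0.077 and from -1.27 to -0.33. The sign turned for siRNA #1 with MYCN expressed without MYCN+/SNRPD3+ replicate 1 (-0.28) or MYCN+/SNRPD3- #1 replicate 1 (-0.18), and for its interaction without MYCN+/SNRPD3+ replicate 3 (0.077), none past the threshold. The difference in intron 1 PSI over SNRPD3-depleted libraries ran from 27.6 to 30.9 points, and that with control siRNA from 34.4 to 37.9. When only the groups compared were fitted, 2 pathway genes, PC and PDP2, had a called intron.

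Pairing by replicate number was looked at between libraries of different groups, after the group mean of each intron was subtracted. Same-numbered libraries had correlations of what remained from -0.0509 to 0.0638 (mean 0.00615, 45 pairs). The mean was -0.00307 over 90 pairs of different numbers. As a hint from the data, 14 of 18 libraries had their highest mean correlation with libraries of their own number. These low values do not settle whether the numbers are a pairing. With the replicate block the MYCN effect stayed at 3.21 with siRNA #1 and 2.81 with siRNA #2, with adjusted p of 0.0412 and 0.0743 in limma, and the permutation within numbers gave an exact p of 0.03125, the smallest it can give. The block changed no call. Unknown depth limits what a low PSI can show, and the tests of SNRPD3 have intervals wider than 1 log2 odds on either side of the estimate in the interactions.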
